A study of Mus musculus with 6 samples.

Results

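The integrated stress response is described here through 10 of its genes, Atf4, Atf5, Ddit3, Trib3, Chac1, Ddit4, Asns, Cth, Aldh18a1 and Vldlr, in mouse embryonic fibroblasts with and without Fbxw7. They were taken by name from the gene column of the deposited tables, 10 of 52006 named loci, and all 10 passed the filter on low counts that left 16787 genes for testing. The genes had been picked with their differences between the genotypes in these libraries already known, so those differences are described and not offered as tests. RNA had been sequenced from 3 libraries of Fbxw7 KO cells and 3 libraries of WT cells. All were embryonic fibroblasts, cells of connective tissue cultured from mouse embryos, kept in DMEM with 15% serum and 1% nonessential amino acids with no treatment named in the labels. FBXW7 is the substrate-recognition part of a ubiquitin ligase that marks MYC, cyclin E, JUN and other proteins for degradation. The sources used here do not give how the gene was deleted, which exons were removed or whether replicates are different cultures, so errors measure only the spread between these libraries, which may be technical.

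The integrated stress response starts when a kinase that senses amino acid shortage, unfolded protein, heme shortage or viral RNA phosphorylates the translation factor eIF2. Most protein synthesis then slows, while the mRNA of the transcription factor ATF4, whose leader carries short upstream reading frames, is translated more. ATF4 pairs with C/EBP and other bZIP proteins on composite DNA elements and switches on genes of amino acid synthesis and transport, redox balance and, under lasting stress, cell death. Because much of this control acts on translation, an mRNA level of Atf4, Atf5 or Ddit3 does not measure the protein.

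Values are given as CPM (estimated fragments relative to the library total, scaled with TMM library factors) for comparisons of 1 gene between libraries, and as FPKM (fragments relative to transcript length and library total) for comparisons between genes. The libraries held 55720129 to 60402238 estimated fragments in Fbxw7 KO cells and 62551369 to 64198455 in WT cells, and the members' lowest library value was 378 fragments, for Cth in WT cells. Fbxw7 mRNA itself read 27.6, 27.4 and 24.1 CPM in Fbxw7 KO libraries and 29.5, 28.4 and 30.1 CPM in WT libraries, a log2 fold change of -0.16 ± 0.10 (SE) that did not pass the test (edgeR adjusted p = 0.332). As these reads cover the whole gene, they do not check the genotype labels. Squared differences between replicates were set against those of sampling noise (median chi-square over its expected median). Between replicates 1 and 2 they were 5.84 (Fbxw7 KO) and 6.45 (WT) times as large. Between replicate 3 and these they were 26.5 and 34.2 times as large in Fbxw7 KO cells and 22.2 and 24.6 times in WT cells. Of the fibroblast markers, 8 could be tested, of which Dcn and Lum were higher and Vim lower in Fbxw7 KO cells (S100a4, in a locus shared with other gene names, was lower too), and the list summed to 7165 to 7840 FPKM in Fbxw7 KO libraries and 7836 to 8812 FPKM in WT libraries. Among markers of other cell types, endothelial markers summed to 0.501 to 0.673 FPKM in Fbxw7 KO libraries and 1.47 to 2.24 FPKM in WT libraries, and macrophage and blood markers to 8.67 to 10.9 FPKM in Fbxw7 KO libraries and 15.8 to 17.7 FPKM in WT libraries. Neural markers summed to 1.54 to 4.61 FPKM in Fbxw7 KO libraries and 7.73 to 8.37 FPKM in WT libraries, and adipocyte markers to 43.8 to 66.9 FPKM in Fbxw7 KO libraries and 33.0 to 71.7 FPKM in WT libraries, most of it Lpl, at means of 57.1 FPKM in Fbxw7 KO cells and 55.4 FPKM in WT cells. Epithelial markers summed to 0.0404 to 0.0804 FPKM in Fbxw7 KO libraries and 0.127 to 0.255 FPKM in WT libraries, and skeletal muscle markers to 0.0520 to 0.0646 FPKM in Fbxw7 KO libraries and 0.0898 to 0.154 FPKM in WT libraries. Of the tested markers of these types, Kdr, Tek, Cd68, Lyz2, Map2 and Fabp4 were lower in Fbxw7 KO cells and none was higher by edgeR, and Adgre1, Krt8, Krt14, Myod1, Myf5, Sox2, Cidec and Lep were listed at 0 in all 6 libraries. Sex-linked transcripts also differed between the genotypes: the locus of Xist, an RNA of cells with more than a single X chromosome, read 911 ± 126 CPM in Fbxw7 KO cells and 1.47 ± 1.09 CPM in WT cells, and the Y-linked Ddx3y read 30.4 ± 6.01 CPM in Fbxw7 KO cells and 95.9 ± 13.8 CPM in WT cells (SD, n = 3 each). The part of these differences in the results below was not tested.

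The composite element that ATF4 binds with C/EBP proteins was looked for in RefSeq promoter windows of the members (GRCm38.p6, 250 bases before to 50 after a gene's start), because the human ASNS promoter is known to answer amino acid shortage through such an element. The letters searched were TGATGNAA and, for the other strand, TTNCATCA. A window was on file for 9 of the 10 members, all but Cth, and 4 of the 9 held a match, Asns, Chac1, Trib3 and Vldlr. Of all 32851 windows of that length 3.97% held a match, and 4.51% of genes did so in at least 1 window. As such elements are part of what is known of ATF4 targets, the matches are not independent of the choice of members. Nothing is read from their share. The stretch around each match is shown 5′ to 3′ on the gene's own strand, with the match in capitals. RefSeq and GENCODE M21 place the starts of these genes apart, by 45 bases for Asns, 28 for Trib3 and 13 for Chac1, so the place of each match is given against both.
Asns, chr6:7693225-7693324, minus strand, match starting 23 bases before the RefSeq start but at base 23 counted from the GENCODE start: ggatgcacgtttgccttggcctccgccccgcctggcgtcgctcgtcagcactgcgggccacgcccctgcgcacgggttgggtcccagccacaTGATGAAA
Chac1, chr2:119351003-119351102, plus strand, match starting 193 bases before the RefSeq start and 180 before the GENCODE start: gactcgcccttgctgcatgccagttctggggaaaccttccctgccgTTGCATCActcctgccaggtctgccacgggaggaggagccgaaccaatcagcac
Trib3, chr2:152344031-152344130, minus strand, match starting at base 15 counted from the RefSeq start but 14 bases before the GENCODE start: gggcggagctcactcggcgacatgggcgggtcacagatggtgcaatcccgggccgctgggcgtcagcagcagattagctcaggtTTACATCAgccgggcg
Vldlr, chr19:27216809-27216838, plus strand, match starting 200 bases before the downstream of its 2 RefSeq starts but at base 337 counted from the GENCODE start: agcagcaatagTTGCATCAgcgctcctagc
The Asns match lies on the gene's own strand, and the other matches lie on the opposite strand. Atf4, Atf5, Ddit3, Ddit4 and Aldh18a1 held no match, which says only that these letters are not in their windows of 300 bases. Atf5, like Vldlr, has 2 RefSeq starts and so 2 windows.

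Across the members, 8 of 10 were higher in Fbxw7 KO cells and 0 were lower by the fit across all genes (edgeR quasi-likelihood test, Benjamini-Hochberg adjusted p under 0.05), where 16.1% of all tested genes passed, 8.03% higher and 8.08% lower. At an unadjusted p under 0.05 the numbers were 8 higher and 1 lower, where 16.1% of all genes were higher and 15.5% lower. By DESeq2 they were also 8 and 1, where 10.4% of all genes were higher and 11.3% lower. The 8 were Atf4, Trib3, Chac1, Ddit4, Asns, Cth, Aldh18a1 and Vldlr, and the 2 outside the threshold were Atf5 and Ddit3. In no member did the 3 Fbxw7 KO libraries overlap the 3 WT libraries: 8 lay wholly above, as did 19.2% of all genes, and Atf5 and Ddit3 lay wholly below, as did 18.4%, together 37.7%. The median log2 fold change of the 10 members was 0.75, and that of all tested genes 0.01. As the members were chosen from this contrast, nothing is read from these shares. In bulk RNA, fewer cells that express a gene and less of its RNA per cell cannot be told apart. Genome-wide, 2705 genes passed, and 49.8% of them were higher, against 65.7% with library size as the only scaling and 38.1% with limma on log2(FPKM + 1). The genome-wide number was 1169 without Fbxw7 KO replicate 1, 1462 without Fbxw7 KO replicate 2, 1302 without WT replicate 1 and 1271 without WT replicate 2.

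**Figure D1:**
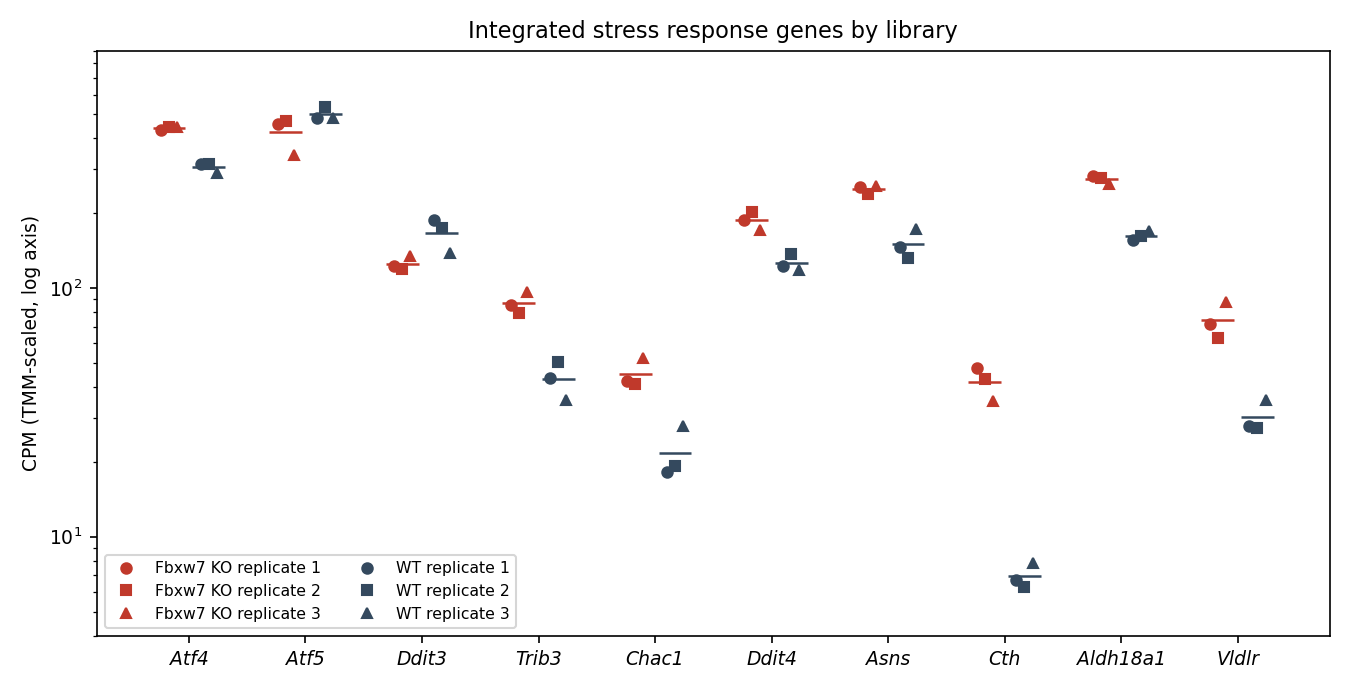
CPM of each of the 10 genes on a log axis, with 1 point per library (marker shape gives the replicate), Fbxw7 KO left of WT, and a line at the mean of 3 libraries. The red Fbxw7 KO points lie above the WT points for 8 genes and below them for Atf5 and Ddit3, with the widest gap at Cth.

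The 3 bZIP transcription factors of the group divided, with Atf4 higher and its relatives Atf5 and Ddit3 at lower values in Fbxw7 KO cells. Atf4 (chromosome 15, 80255184 to 80257541, plus strand, mm10), the central factor of the response, read 432, 443 and 442 CPM in Fbxw7 KO libraries, against 314, 316 and 291 CPM in WT libraries. Its means were 439 ± 6.09 CPM in Fbxw7 KO cells and 307 ± 14.01 CPM in WT cells (SD, n = 3 each), a log2 fold change of 0.52 ± 0.09 (SE) and a ratio of 1.43. The Fbxw7 KO libraries agreed closely, with a coefficient of variation of 1.4%, the smallest of any member in either genotype.

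Atf5 (chromosome 7, 44812256 to 44816658, minus strand), an ATF4 relative that is also translated more when eIF2 is phosphorylated and that drives mitochondrial stress genes, read 456, 471 and 342 CPM in Fbxw7 KO libraries. WT libraries held 483, 534 and 483 CPM. The log2 fold change of -0.24 ± 0.14 did not pass the test, and Fbxw7 KO replicate 3 alone stood far below the rest. The gene overlaps Nup62 and Il4i1, both on the opposite strand, and the sources used here do not give whether strand was used in counting.

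Ddit3 (chromosome 10, 127290774 to 127296288, plus strand) encodes CHOP, a C/EBP-family factor that ATF4 induces and that promotes cell death when stress lasts. It read 123, 119 and 134 CPM in Fbxw7 KO libraries and 189, 174 and 139 CPM in WT libraries. The groups were only just apart, because WT replicate 3 came close to Fbxw7 KO replicate 3. The means of 125 ± 7.59 CPM in Fbxw7 KO cells and 167 ± 25.7 CPM in WT cells (SD, n = 3 each) gave a log2 fold change of -0.41 ± 0.13, which did not pass the threshold. It did pass, as lower in Fbxw7 KO cells, without Fbxw7 KO replicate 3 (-0.47) or without WT replicate 3 (-0.53). It did not pass without Fbxw7 KO replicate 1 (-0.40) or 2 (-0.38), or without WT replicate 1 (-0.32) or 2 (-0.39). The Ddit3 locus carries a second name, AC144852.1, in the deposited table and overlaps Gm4189 and Mars on the other strand, so part of its fragments may belong to neighbours.

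The leaders of these 3 mRNAs share upstream ATGs. As such leaders are part of what is known of the pathway, the feature is not independent of the choice of members. In the longest-coding principal transcripts of GENCODE M21 the 5′ untranslated region of Atf4 is 594 bases long with 3 upstream ATGs, that of Atf5 is 373 bases with 2, and that of Ddit3 is 186 bases with 2. Among the other 7 members Asns has 1 upstream ATG and the rest have 0. Across 21769 genes, 51.4% have at least 1 and 31.7% at least 2, with a median leader of 159 bases.

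Trib3, Chac1 and Ddit4 are stress effectors and brakes induced by ATF4 or CHOP, and all 3 were higher in Fbxw7 KO cells. Trib3 (chromosome 2, 152337422 to 152344032, minus strand), a pseudokinase that ATF4 and CHOP induce together and that in turn restrains ATF4, read 85.4, 79.6 and 96.3 CPM in Fbxw7 KO libraries, against 43.6, 50.3 and 35.6 CPM in WT libraries. Its log2 fold change was 1.01 ± 0.14, with means of 87.1 ± 8.52 CPM in Fbxw7 KO cells and 43.2 ± 7.36 CPM in WT cells (SD, n = 3 each). The lowest Fbxw7 KO library was well clear of the highest WT library. The match printed above lies between the RefSeq and the GENCODE start.

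Chac1 (chromosome 2, 119351229 to 119354381, plus strand), an enzyme that breaks down glutathione and is induced by ATF4, read 42.4, 41.3 and 52.2 CPM in Fbxw7 KO libraries, against 18.3, 19.2 and 27.8 CPM in WT libraries. Replicate 3 was the highest library of each genotype. Its means of 45.3 ± 5.98 CPM in Fbxw7 KO cells and 21.8 ± 5.23 CPM in WT cells (SD, n = 3 each) stood in a ratio of 2.08, a log2 fold change of 1.06 ± 0.18. With a coefficient of variation of 24.0%, WT Chac1 was the most variable of all the member values.

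Ddit4 (chromosome 10, 59949669 to 59951834, minus strand) encodes REDD1, which holds back the growth kinase mTORC1 and is induced by ATF4 and also by hypoxia and glucocorticoids. It read 188, 202 and 171 CPM in Fbxw7 KO libraries, against 123, 136 and 119 CPM in WT libraries, and its log2 fold change was 0.57 ± 0.10. All Fbxw7 KO libraries were above all WT libraries, with replicate 2 the highest and replicate 3 the lowest in both genotypes. Without WT replicate 1 its log2 fold change was 0.55 and no longer passed the threshold.

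Enzymes of amino acid metabolism held the widest difference of the group. Cth (chromosome 3, 157894248 to 157925077, minus strand), cystathionine gamma-lyase, makes cysteine from cystathionine in the last step of transsulfuration. It read 47.7, 43.0 and 35.2 CPM in Fbxw7 KO libraries and 6.72, 6.27 and 7.83 CPM in WT libraries. The means were 42.0 ± 6.31 CPM in Fbxw7 KO cells and 6.94 ± 0.802 CPM in WT cells (SD, n = 3 each), 6.04 times apart, with a log2 fold change of 2.60 ± 0.15. Ranked by the size of the log2 fold change, Cth came 334th of the 16787 tested genes, whereas Vldlr, the next member, came 1207th. Cth overlaps Gm43314, an unverified annotation entry on the same strand, which could share fragments.

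Asns (chromosome 6, 7675169 to 7693254, minus strand), which makes asparagine from aspartate and is a standard reporter of ATF4 activity, read 256, 238 and 258 CPM in Fbxw7 KO libraries, against 147, 132 and 173 CPM in WT libraries. Its log2 fold change was 0.73 ± 0.12, with 250.5 ± 10.7 CPM in Fbxw7 KO cells and 151 ± 20.7 CPM in WT cells (SD, n = 3 each). The match printed above lies between the GENCODE and the RefSeq start.

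Aldh18a1 (chromosome 19, 40550257 to 40588463, minus strand), a mitochondrial enzyme of proline and ornithine synthesis, read 283, 278 and 262 CPM in Fbxw7 KO libraries, against 156, 162 and 169 CPM in WT libraries. The spread was small in both genotypes, with a coefficient of variation of 4.1% in each, and the log2 fold change was 0.76 ± 0.09. The pseudogene Gm15801 overlaps the gene.

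The remaining member, Vldlr (chromosome 19, 27216484 to 27254231, plus strand), is a lipoprotein receptor that ATF4 induces in stressed mouse fibroblasts and liver. It read 71.8, 63.2 and 87.9 CPM in Fbxw7 KO libraries and 28.0, 27.2 and 35.4 CPM in WT libraries. Replicate 3 was the highest library and replicate 2 the lowest in both genotypes, and the groups stood well apart. The means of 74.3 ± 12.5 CPM in Fbxw7 KO cells and 30.2 ± 4.50 CPM in WT cells (SD, n = 3 each) gave a log2 fold change of 1.30 ± 0.16.

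**Figure D2:**
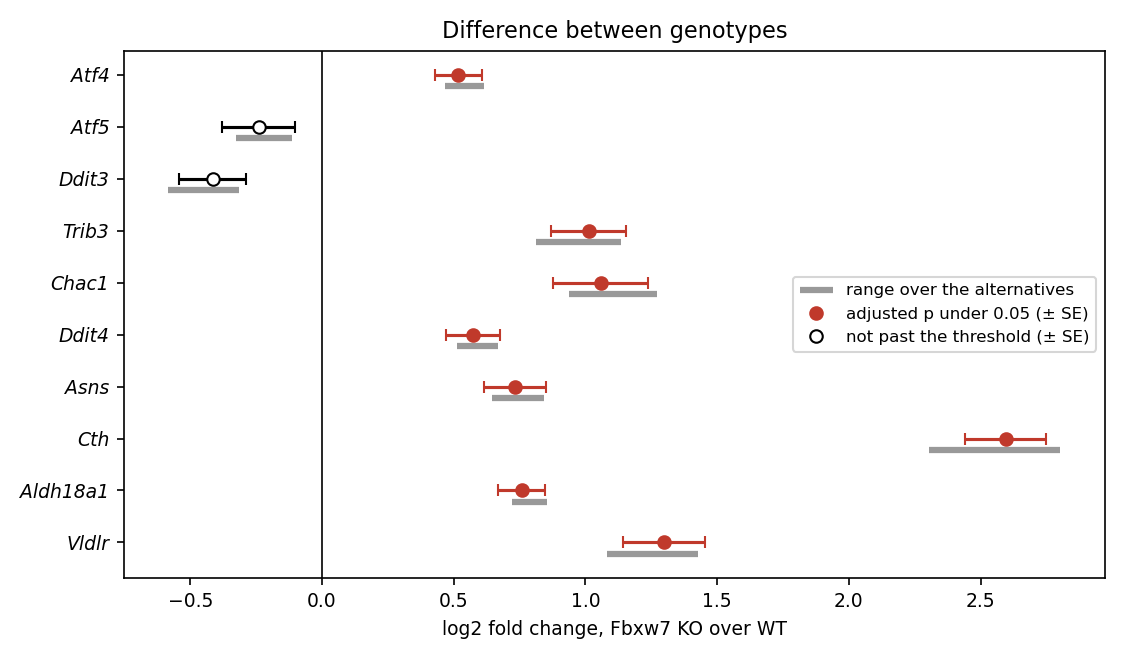
Log2 fold change of each gene, Fbxw7 KO over WT, with its standard error (n = 3 libraries each); filled points passed an adjusted p of 0.05 over all tested genes and open points did not, and grey bars give the range over 19 alternative analyses. The open points of Atf5 (-0.24) and Ddit3 (-0.41) lie left of 0 and the other 8 right of it, and no grey bar crosses 0.

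Per length, the order of the mRNA levels also differed between the genotypes. In Fbxw7 KO cells Atf4 led with 263 ± 5.85 FPKM, followed by Atf5 at 239.9 ± 43.0 FPKM, which overlapped it, and Ddit3 at 180.3 ± 4.61 FPKM. In WT cells Atf5 led with 293 ± 18.6 FPKM, followed by Ddit3 at 252 ± 35.3 FPKM, which overlapped it, and Atf4 at 190.1 ± 6.96 FPKM (SD, n = 3 each). By its mean, Atf4 was thus at the top of the order in Fbxw7 KO cells and behind both relatives in WT cells. Its lead over Atf5 rested on Fbxw7 KO replicate 3, with 261.8 FPKM against 190.8 FPKM for Atf5. In Fbxw7 KO replicates 1 and 2 Atf4 read 258.0 and 269.5 FPKM, and Atf5 257.9 and 271.0 FPKM.

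Below the bZIP factors the order of FPKM levels in Fbxw7 KO cells was Asns (127), Ddit4 (110.3), Aldh18a1 (81.2), Trib3 (44.2), Chac1 (28.9), Cth (24.2) and Vldlr (16.5), and only Chac1 and Cth overlapped as neighbours. In WT cells it was Asns (79.9), Ddit4 (76.8), Aldh18a1 (48.5), Trib3 (22.5), Chac1 (14.4), Vldlr (7.20) and Cth (4.09), and only Asns and Ddit4 overlapped. Cth was thus the lowest member in WT cells, while Vldlr was the lowest in Fbxw7 KO cells.

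Ratios of 2 members within a library do not depend on how libraries are scaled to each other. Ddit3 over Atf4 was 0.691, 0.657 and 0.709 in Fbxw7 KO libraries, against 1.46, 1.35 and 1.16 in WT libraries. Atf5 over Atf4 was 1.00, 1.005 and 0.729 in Fbxw7 KO libraries, against 1.45, 1.60 and 1.57 in WT libraries. In both ratios every Fbxw7 KO library lay below every WT library. That order was fixed in advance and is no further result. In FPKM, too, all Fbxw7 KO libraries lay above WT for Atf4 and below WT for Ddit3 and Atf5.

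Ratios of a target to a factor went the other way. Trib3 over Ddit3 was 0.243, 0.231 and 0.259 in Fbxw7 KO libraries, against 0.0797, 0.0996 and 0.0889 in WT libraries. Cth over Atf4 averaged 0.0921 ± 0.0152 in Fbxw7 KO cells and 0.0216 ± 0.00353 in WT cells (SD, n = 3 each). In both, each Fbxw7 KO library was above each WT library. For Trib3 over Ddit3 this also follows from the separate levels of the 2 genes. A ratio shows unequal change and not which of its members changed.

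**Figure D3:**
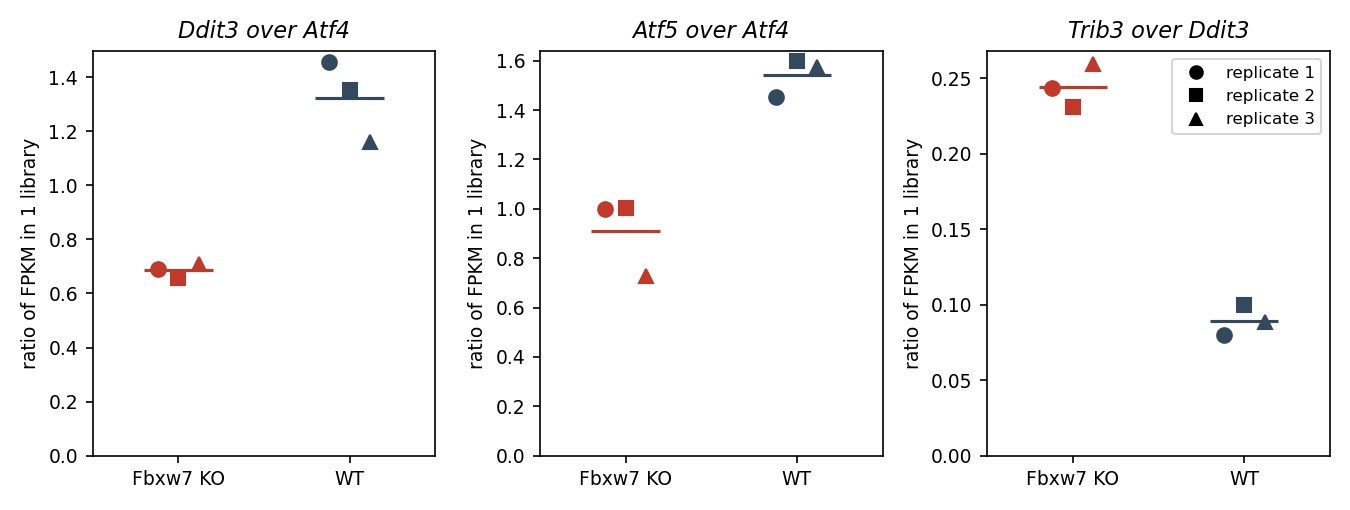
Ratio of FPKM values within each library for Ddit3 over Atf4, Atf5 over Atf4 and Trib3 over Ddit3, with 1 point per library, a line at the mean of 3, Fbxw7 KO left of WT, and axes that start at 0. The first 2 ratios are lower and the third is higher in all Fbxw7 KO libraries, with means of 0.686, 0.911 and 0.245 in Fbxw7 KO cells and 1.32, 1.54 and 0.0894 in WT cells.

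The members' profiles over the 6 libraries were compared by the root mean square difference of their log2 CPM, each centred on its mean. Atf4 was nearest to Ddit4 (0.0863) and Aldh18a1 (0.145) among the members and farthest from Cth (1.05). Among 8878 other genes with a mean of at least 10 CPM, the nearest to Atf4 were the septin gene Sept6 (0.0157), the circadian clock activator gene Arntl (0.0326) and Spidr (0.0372). Ddit3 was nearest to Atf5 (0.247) among the members, and its nearest other genes were Kdelc2 (0.0398), Enpp5 (0.0414) and Htatip2 (0.0513). These distances describe likeness over 6 libraries that share the genotype difference, and carry no test.

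Beyond the members, 10 lists of genes upstream of, beside and downstream of ATF4 held 110 entries, of which 101 were tested. In the fit across all genes 29 were higher and 1 was lower in Fbxw7 KO cells, so 28.7% were higher, where 8.03% of all genes were. The median log2 fold change was 0.12, beside 0.01 for all genes. These lists were drawn up from knowledge of the pathway when earlier results on ATF4 targets in the same libraries were known. For each list count below, the shares over all tested genes are 8.03% higher and 8.08% lower. The total of 30 was 18 without Fbxw7 KO replicate 1, 19 without Fbxw7 KO replicate 2, 18 without WT replicate 1 and 17 without WT replicate 2.

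Upstream of ATF4, 2 of 12 tested genes passed (16.7%), where 16.1% of all genes did. Of the 4 eIF2 kinases 0 passed in edgeR, with 1 lower at an unadjusted p under 0.05 and 1 lower by DESeq2, and their median log2 fold change was -0.15. The most abundant of them were Eif2ak2, which encodes the RNA-sensing kinase PKR and read 161 ± 14.4 CPM in Fbxw7 KO cells and 204 ± 8.79 CPM in WT cells, and Eif2ak1, the heme-regulated kinase, at 78.1 ± 4.25 CPM in Fbxw7 KO cells and 70.2 ± 2.80 CPM in WT cells (SD, n = 3 each). The log2 fold change of Eif2ak2 was -0.34 ± 0.10 (edgeR adjusted p = 0.0555), and it passed as lower without Fbxw7 KO replicate 3. Of the 8 subunits of eIF2 and its exchange factor eIF2B, 2 were higher, Eif2b3 (0.64 ± 0.16) and Eif2s3x (0.51 ± 0.14). Both calls were lost without Fbxw7 KO replicate 1, 2 or 3 and without WT replicate 1 or 2, and the list median over all 6 libraries was -0.01 (-0.08 to 0.06 with 1 library left out). Eif2s3x is X-linked, as its name tells, and the part of the Xist and Ddx3y difference in its value was not tested. Chromosomes were looked up only for the members and Fbxw7, so other genes named in this report may be X-linked too.

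Feedback on the pathway was represented by the phosphatase subunits that reverse eIF2 phosphorylation. Ppp1r15a, which encodes the stress-induced subunit GADD34 and is itself an ATF4 and CHOP target, read 56.6, 59.5 and 73.6 CPM in Fbxw7 KO libraries, against 30.1, 34.4 and 35.5 CPM in WT libraries. Its log2 fold change was 0.92 ± 0.13 (edgeR adjusted p = 0.00351). It was 1 of 4 tested subunits that passed, with a list median of 0.45, and 2 passed without Fbxw7 KO replicate 1 or without WT replicate 3.

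Of the 7 tested bZIP partners and repressors of ATF4, 2 were higher and the list median was 0.67. Cebpa read 13.0, 13.1 and 6.93 CPM in Fbxw7 KO libraries, against 3.14, 3.27 and 3.37 CPM in WT libraries (log2 fold change 1.76 ± 0.25, edgeR adjusted p = 0.00417). Cebpd read 88.8 ± 25.0 CPM in Fbxw7 KO cells and 50.9 ± 9.47 CPM in WT cells (SD, n = 3 each; 0.80 ± 0.22, adjusted p = 0.0438 by edgeR). Leaving out Fbxw7 KO replicate 1 or 2, or WT replicate 1, 2 or 3, left 1 called, as the call of Cebpd was then lost, and the median was 0.36 without Fbxw7 KO replicate 2. Cebpg, a partner of ATF4 left out of the count because its locus carries another gene name as well, read 108 CPM in Fbxw7 KO cells and 76.0 CPM in WT cells on average (0.51 ± 0.09, adjusted p = 0.0109 by edgeR).

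The 3 lists of ATF4 target genes held 35 tested genes outside the members, of which 20 were higher and 1 was lower, with a median log2 fold change of 0.65. The cytosolic tRNA synthetases, also known ATF4 targets, are not among these 35. In that list, counted further below, 2 of 17 were higher, with a median of 0.11. Of all tested genes 8.03% were higher and 8.08% lower, with a median of 0.01. As the lists were drawn up with earlier results on ATF4 targets known, nothing is read from these shares. In amino acid synthesis 7 of 11 were higher and the median was 0.67. Gpt2, which makes alanine from pyruvate, read 126, 124 and 140.2 CPM in Fbxw7 KO libraries, against 56.8, 60.7 and 59.0 CPM in WT libraries, a log2 fold change of 1.14 ± 0.09 (edgeR adjusted p = 0.000355). Bcat1, the branched-chain aminotransferase gene (1.12 ± 0.14), Mthfd2, a mitochondrial folate enzyme gene (0.95 ± 0.12), and Got1, an aspartate aminotransferase gene (0.67 ± 0.11), rose as well. The other 3, named after their values were seen, were Psat1 (0.69 ± 0.18), Shmt2 (0.73 ± 0.17) and Pycr1 (0.59 ± 0.13). Without Fbxw7 KO replicate 1, WT replicate 1 or WT replicate 2 the number was 4, as Psat1, Shmt2 and Pycr1 then missed the threshold. Without Fbxw7 KO replicate 2 the calls of Psat1 and Shmt2 were lost, and without Fbxw7 KO replicate 3 that of Psat1. Not past the threshold over all 6 libraries were Psph (0.54 ± 0.17), Phgdh (0.36 ± 0.25), Aldh1l2 (0.32 ± 0.12) and Cbs (-0.27 ± 0.45). Cbs was scarce, at 0.24 CPM in Fbxw7 KO cells and 0.29 CPM in WT cells on average.

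In amino acid transport 7 of 10 tested genes were higher and the median was 0.79. Slc7a11, which imports cystine, read 19.0, 15.9 and 22.9 CPM in Fbxw7 KO libraries, against 6.91, 6.11 and 8.29 CPM in WT libraries, a log2 fold change of 1.44 ± 0.18 (edgeR adjusted p = 0.00239). Its partner subunit gene Slc3a2 (0.71 ± 0.09), the glycine transporter gene Slc6a9 (1.34 ± 0.14) and the glutamine carrier gene Slc1a5 (0.87 ± 0.10) rose too. The other 3, named after their values were seen, were the carriers Slc7a3 (2.78 ± 0.37) and Slc7a1 (0.54 ± 0.12) for basic amino acids and Slc43a1 (2.29 ± 0.33) for large neutral ones. Slc7a3 read 45.8, 44.6 and 17.5 CPM in Fbxw7 KO libraries and 5.92, 5.71 and 4.05 CPM in WT libraries, so replicate 3 was the lowest in both. The call of Slc7a1 was lost without Fbxw7 KO replicate 1 or 2 or WT replicate 1 or 2. Not past the threshold were Slc38a2 (0.25 ± 0.11), Slc38a7 (0.04 ± 0.11) and Slc1a4 (-0.21 ± 0.09), whose Fbxw7 KO libraries lay wholly below WT.

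Among stress and growth control targets of ATF4 and CHOP, 6 of 14 were higher and 1 was lower, with a median of 0.17, which was 0.09 without Fbxw7 KO replicate 1 or 2 and 0.32 without Fbxw7 KO replicate 3. Stc2, a secreted glycoprotein gene, read 25.4, 23.4 and 25.5 CPM in Fbxw7 KO libraries, against 8.59, 9.04 and 9.40 CPM in WT libraries (1.46 ± 0.11, edgeR adjusted p = 0.000283). Ero1l, an oxidase of the endoplasmic reticulum that CHOP induces (1.27 ± 0.12), and Gadd45a, a growth arrest gene (1.09 ± 0.11), rose with it. Fgf21, a hormone of fasting and mitochondrial stress, was close to absent in WT cells, with 78.9, 92.1 and 271 estimated fragments in Fbxw7 KO libraries, against 2.84, 3.77 and 0 in WT libraries, too few for a fold change. It passed the filter on low counts only through its Fbxw7 KO libraries. Its call is part of the 6 here and of the totals of 20 and 29 above, and is not read as a result. The rest, named after their values were seen, were Adm2 (2.21 ± 0.31), Nupr1 (0.65 ± 0.18) and, as the lower gene, the kinase gene Mknk2 (-0.47 ± 0.12). The call of Mknk2 was lost without Fbxw7 KO replicate 1 or without any of the 3 WT libraries, and that of Nupr1 without any of the 3 Fbxw7 KO libraries or without WT replicate 2 or 3. Not past the threshold were Eif4ebp1 (0.32 ± 0.16), Sesn2 (0.03 ± 0.14) and Tnfrsf10b (0.01 ± 0.13). Atg5 (-0.18 ± 0.10), Sqstm1 (-0.26 ± 0.14), Bbc3 (-0.28 ± 0.18) and Gdf15 (-0.81 ± 0.40) did not pass either. Gdf15 was scarce, at 0.65 CPM in Fbxw7 KO cells and 1.15 CPM in WT cells on average.

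Gene groups next to the pathway were counted in the same way, beside the same 8.03% of all genes higher and 8.08% lower. Of 17 cytosolic tRNA synthetases, which are also known ATF4 targets, 2 were higher, Lars (0.54 ± 0.14) and Sars (0.32 ± 0.09), with a median of 0.11, which was 0.24 without WT replicate 3 and 0.06 without WT replicate 1 or 2. Neither passed without Fbxw7 KO replicate 1 or 2 or WT replicate 1 or 2, the call of Lars was lost without Fbxw7 KO replicate 3 and that of Sars without WT replicate 3, and 5 of the list passed without WT replicate 3. Of 17 targets of ATF6 and XBP1, the other branches of the unfolded protein response, 1 was higher, Herpud1 (0.30 ± 0.08), which ATF4 is also known to induce, with a median of -0.05 (-0.10 to -0.02 with 1 library left out). Of 9 genes of the mitochondrial unfolded protein response 1 was higher, the chaperone gene Hspa9 (0.48 ± 0.10), with a median of 0.02 (0.00 to 0.05 with 1 library left out). The Herpud1 call was lost without Fbxw7 KO replicate 1 or 2 or any of the 3 WT libraries, and the Hspa9 call without Fbxw7 KO replicate 1 or 2 or WT replicate 1 or 2. Without WT replicate 3, 2 genes of the mitochondrial list passed.

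**Figure D4:**
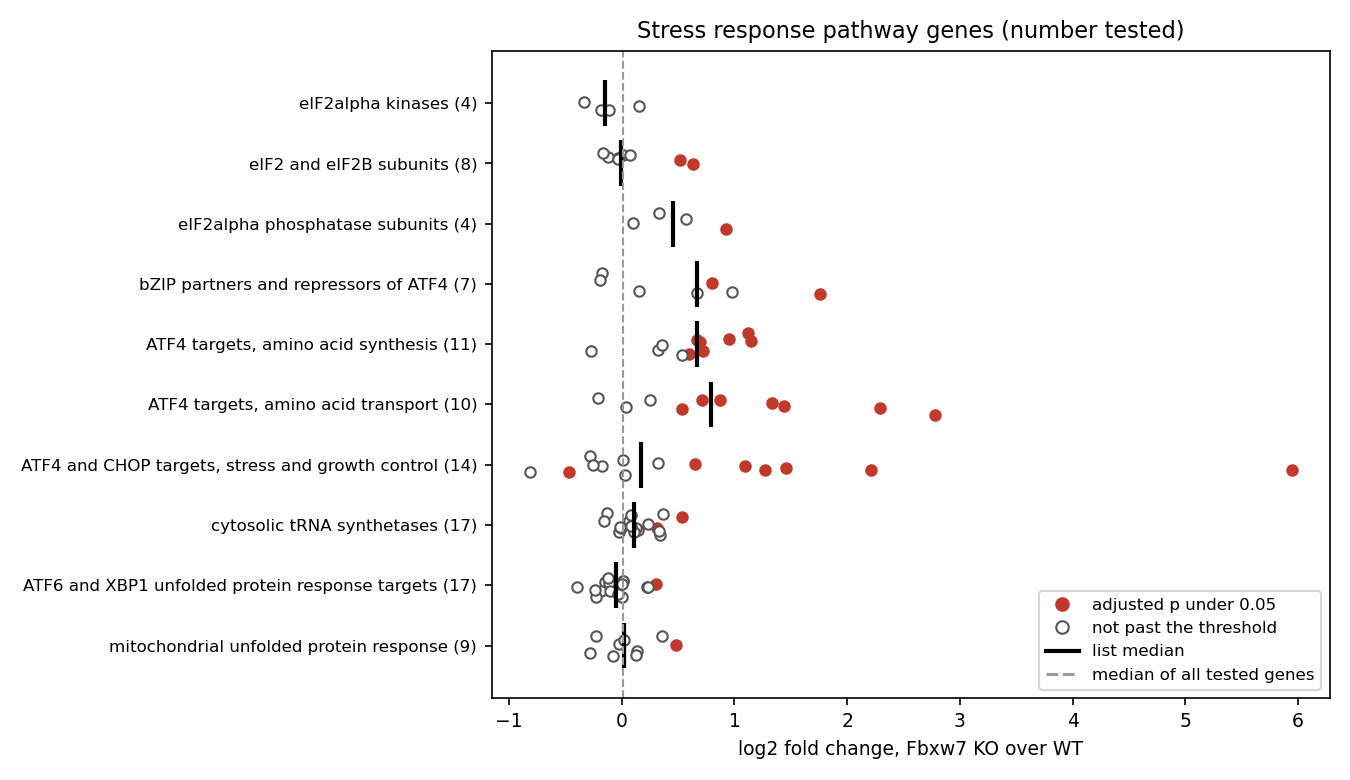
Log2 fold change, Fbxw7 KO over WT, of each tested gene in the 10 pathway lists (number tested in brackets), with filled points for an adjusted p under 0.05, a black bar at the list median and a dashed line at the median of all tested genes. Filled points gather right of 0 in the 3 lists counted as ATF4 targets, and the tRNA synthetase list has a median of 0.11. The medians of the ATF6 and XBP1 list and the mitochondrial list are -0.05 and 0.02, beside 0.01 for all genes. The point farthest right is Fgf21, whose fitted value depends on the prior count because WT libraries held hardly any fragments.

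The composite element was also counted in the promoter windows of these lists. It matched 5 of the 10 tRNA synthetase genes with a window on file (Aars, Gars, Iars, Tars and Yars). Aars lies in a shared locus, was left out of the list counts and had a log2 fold change of -0.15 ± 0.10. Gars, Iars, Tars and Yars did not pass in the fit across all genes. Lars and Sars, which did, are not among the genes that matched. In amino acid synthesis 2 of 10 windows matched (Pycr1 and Got1), in transport 2 of 8 (Slc7a11 and Slc1a4), and in the stress list 2 of 11 (Nupr1 and Fgf21). Of the 17 ATF6 and XBP1 targets with a window 1 matched, Herpud1, and of the 4 kinases and 7 mitochondrial genes with a window 0 did. Among eIF2 and eIF2B subunits 1 of 7 windows matched (Eif2s3x), among bZIP partners 2 of 8 (Atf3 and Jdp2) and among phosphatase subunits 0 of 3. These counts are descriptions of the letters in the windows and say nothing of binding. The lists, too, were drawn up from knowledge of the pathway.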

How the data were processed

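The submitters' processing notes name the build mm10 and the tools Cufflinks 2.2.1, TopHat2 2.1.1, deepTools and SAMtools 1.5. Annotation and strand use are not given in the sources used here. Deposited by the authors were expected counts (estimated fragments per locus, with 88.9% to 89.5% of low values whole multiples of 1 step per library, tolerance 0.05) and FPKM values, with Cufflinks column names per the file headers. A further 1317 unnamed loci (at most 3.13e-05% of a library) and 9 named loci marked as having too many fragments were left out.

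The design had assumed whole counts, so expected counts were rounded. The main test was the two-sided robust quasi-likelihood F test of edgeR 4.0.16 (R 4.3.3) with TMM scaling, filterByExpr and genotype as its term (Benjamini-Hochberg over 16787 genes, threshold 0.05). Means are ± SD over 3 libraries, fold changes ± SE. Alternatives were other library factors and count filters, the Wald test of DESeq2 1.42.0, limma 3.58.1 on log2 FPKM, a replicate term, each library left out and, added after seeing the data, fragments divided by their step, both replicates 3 left out, and replicates 1 and 2 added together. The test was tried on simulated data. Positions and leaders came from GENCODE M21, promoters from RefSeq.

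Members and lists were chosen with earlier results of these data known. From each list up to 4 genes past the threshold with the smallest adjusted p are named, or the 2 most abundant where none passed, and for Atf4 and Ddit3 the 3 genes nearest in profile. In the 3 lists of ATF4 targets the remaining tested genes were named afterwards as well. Of the lists, 6 entries in loci shared between gene names were left out of the counts, 1 of which (Cebpg) passed as higher, 1 was below the filter and 2 were not analysed here. Ddit3 also lies in a shared locus but was kept, since members were taken as any locus that holds their name.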

Additional observations from a re-analysis of the deposited data

How the results depend on the processing

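Over 19 alternatives, 16 planned and 3 chosen after seeing the data, none of 190 values for the members reversed, 174 kept their side of the threshold, 11 no longer passed and 5 newly passed. The members called numbered 7 to 9 when 1 library was left out, 8 with the replicate block, and 3 both with limma on log2(FPKM + 1) without a filter (Atf4, Cth and Aldh18a1) and with replicates 1 and 2 added together per genotype (Trib3, Cth and Vldlr). Cth passed under all 19, with a log2 fold change of 2.30 to 2.80, and Atf5 under none (-0.33 to -0.11). Ddit3 (-0.58 to -0.32) newly passed as lower under 5: no count filter, DESeq2's Wald test, without Fbxw7 KO replicate 3, without WT replicate 3, and with replicate 3 of both genotypes left out.

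For all genes the number called was 1169 to 3282 with 1 library left out, 1492 by limma on log2(FPKM + 1), 1558 on log2(FPKM + 0.1), 463 without its filter, 6993 with replicate 3 left out of both genotypes and 484 with replicates 1 and 2 added together. For the pathway lists, against 30, these were 17 to 32, 19, 21, 6, 57 and 12. Summing leaves 2 samples a genotype, and the cause of the other changes was not tested. Of 739 values for 39 other named genes, 0 reversed, 145 no longer passed and 14 newly passed. Same-numbered libraries deviated little together over all genes (r = 0.024, 0.098 and 0.079). A correlation over all genes can miss a batch that acts on some of them, so it does not settle whether the numbers pair libraries. The replicate block gave 2356 genes and 26 pathway genes.

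The members held at least 378 fragments in each library. Reads of overlapping genes could not be told apart, protein levels were not measured, and 3 libraries a genotype limit the precision.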
